A study of Mus musculus with 5 samples.

Results

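The genes described here are 10 members of the VEGF and angiopoietin signaling systems of blood vessels: the VEGF receptors Flt1 and Flt4, the co-receptors Nrp1 and Nrp2, the angiopoietin receptor Tek and its partner Tie1, and the ligands Vegfa, Vegfc, Angpt1 and Angpt2. They were taken by their RefSeq symbols from the 21774 protein-coding genes of the mouse annotation. In the list of DNaseI hypersensitive sites (DHSs) of each stage, a DHS was given to a gene if it came within 1 kb of any transcription start site (TSS) of that gene, which is called a promoter DHS here, or if its middle lay inside the gene or up to 100 kb from its TSS and no other protein-coding gene was nearer. By this rule 129 of the 135173 listed DHSs belonged to the 10 genes.

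DNaseI-seq finds the stretches of chromatin that the nuclease DNase I can cut, and it was carried out on cells sorted during in vitro differentiation of 1 mouse embryonic stem cell (ESC) line of strain 129 with a GFP reporter in the mesodermal gene Brachyury (Bry). MES cells are mesoderm, sorted as Bry:GFP+ without Flk1. HB cells are hemangioblasts, which carry both Bry:GFP and Flk1, and HE cells are hemogenic endothelium, sorted for Tie2 and cKit and against CD41. HP cells are CD41+ hematopoietic progenitors, and MAC cells are CD11b+ macrophages grown from CD41+ cells. From the Flk1+ stage onward the cultures received cytokines, as the study describes, and the labels name no further allele for any of the 5 populations. Each stage is 1 list of intervals, so n = 1 throughout, no replicate error can be given, and no difference between stages was tested. Tie2, the product of Tek, is itself a marker by which HE cells were sorted, so Tek accessibility in HE belongs to a gene that the gate selected for.

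VEGFs are secreted factors that bind receptor tyrosine kinases on endothelial cells and drive the formation and growth of vessels. Flk1, the product of Kdr, is the main signaling receptor of VEGF-A, FLT1 binds VEGF-A tightly but signals weakly and exists in a soluble form, and FLT4 is the receptor of VEGF-C in lymphatic endothelium. Neuropilins present VEGFs to these receptors and also bind semaphorins. Angiopoietins act on TIE2 to steady or loosen the vessel wall, and blood cells arise from hemogenic endothelium that carries many of these receptors.

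To show the DNA behind the sites that appeared after mesoderm, a stretch of 200 bases is given for the region nearest to a TSS that was open in HE and not in MES, for each gene that had such a region. A region is open in a stage if a DHS of that stage has its middle there (the merging is described with the regions below). Where the center of that region lay within 1 kb of a TSS, the stretch ends at the first annotated TSS, and otherwise it is the center of the region. All sequences are those of the RefSeq assembly GRCm38.p6 (mm10 coordinates, from strain C57BL/6J and not 129), read 5′ to 3′ on the strand of the gene, none overlaps an annotated exon, and all lie inside an HE DHS. Capitals mark exact matches, on either strand, to any of 10 short consensus motifs. Their letters are AGATAA for GATA factors, GGAAGT for ETS factors, TGTGGT for RUNX factors, GGAATG for TEAD factors, AACAAT for SOX factors, TGTTTAC for FOX factors, CAGCTG for an E-box, TGANTCA for AP-1, ACGTG for HIF, and AACAGGAA for a FOX element joined to an ETS core, whose last bases can overlap an ETS match.
Tek upstream of the TSS, chr4:94738886-94739085: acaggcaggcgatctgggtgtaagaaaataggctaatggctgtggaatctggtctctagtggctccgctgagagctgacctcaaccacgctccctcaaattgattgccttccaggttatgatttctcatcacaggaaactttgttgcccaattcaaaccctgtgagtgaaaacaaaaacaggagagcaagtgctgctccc
Tie1 upstream of the TSS, chr4:118489850-118490049: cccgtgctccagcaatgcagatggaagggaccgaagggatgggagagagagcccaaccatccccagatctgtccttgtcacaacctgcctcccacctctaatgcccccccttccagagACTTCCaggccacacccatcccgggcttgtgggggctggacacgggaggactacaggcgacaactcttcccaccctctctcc
Flt1 upstream of the TSS, chr5:147726439-147726638: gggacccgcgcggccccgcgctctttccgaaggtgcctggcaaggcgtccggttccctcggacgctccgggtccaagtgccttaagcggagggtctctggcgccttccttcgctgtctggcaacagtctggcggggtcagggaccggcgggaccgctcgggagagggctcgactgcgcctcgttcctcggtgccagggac
Flt4 upstream of the TSS, chr11:49609479-49609678: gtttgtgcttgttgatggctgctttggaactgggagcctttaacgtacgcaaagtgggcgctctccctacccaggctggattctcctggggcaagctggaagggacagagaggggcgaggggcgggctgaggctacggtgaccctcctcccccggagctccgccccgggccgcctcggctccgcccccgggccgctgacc
Nrp1 upstream of the TSS, chr8:128358391-128358590: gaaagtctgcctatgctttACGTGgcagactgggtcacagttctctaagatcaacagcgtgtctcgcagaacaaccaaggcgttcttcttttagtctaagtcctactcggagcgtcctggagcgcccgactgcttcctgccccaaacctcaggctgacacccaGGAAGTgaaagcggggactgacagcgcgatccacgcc
Nrp2 upstream of the TSS, chr1:62703117-62703316: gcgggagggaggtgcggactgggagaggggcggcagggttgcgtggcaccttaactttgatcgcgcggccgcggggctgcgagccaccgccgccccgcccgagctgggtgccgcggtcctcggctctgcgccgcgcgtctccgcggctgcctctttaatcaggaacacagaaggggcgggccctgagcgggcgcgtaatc
Vegfa intron, chr17:46027627-46027826: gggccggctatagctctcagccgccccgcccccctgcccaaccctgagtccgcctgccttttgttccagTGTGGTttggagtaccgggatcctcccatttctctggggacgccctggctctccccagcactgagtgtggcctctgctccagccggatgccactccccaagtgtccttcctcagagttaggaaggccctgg
Angpt1 intron, chr15:42675842-42676041: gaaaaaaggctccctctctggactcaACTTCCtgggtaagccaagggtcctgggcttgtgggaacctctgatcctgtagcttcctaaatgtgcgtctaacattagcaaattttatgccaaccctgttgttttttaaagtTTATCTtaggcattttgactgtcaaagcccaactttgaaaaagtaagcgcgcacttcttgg
Angpt2 intron, chr8:18699300-18699499: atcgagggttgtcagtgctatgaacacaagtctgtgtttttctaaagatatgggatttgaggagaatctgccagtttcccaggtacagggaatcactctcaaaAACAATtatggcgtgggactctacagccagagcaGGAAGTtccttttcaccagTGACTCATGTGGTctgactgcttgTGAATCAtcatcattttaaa

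The Tie1 stretch held an ETS match at bases 119 to 124, and the Nrp1 stretch an ETS match at bases 164 to 169 and a HIF match at bases 20 to 24. Of the 200-base stretches upstream of all protein-coding genes, 15.9% held the ETS motif and 14.1% the HIF motif. The upstream stretches of Tek, Flt1, Flt4 and Nrp2 held none of the 10 motifs, which says only that these letters are not in these windows. The Angpt1 intron had an ETS match at bases 27 to 32 and a GATA match at bases 140 to 145. The Angpt2 intron was the densest, with SOX, ETS and RUNX matches and 2 AP-1 matches, the first of which runs directly into the RUNX match. The Vegfa intron had a RUNX match at bases 70 to 75. Among the 200-base centers of all merged regions, 24% held ETS, 16.1% RUNX, 13% AP-1, 10.5% GATA and 7.27% SOX. Vegfc had no region that was open in HE and not in MES.

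A further 4 stretches were chosen after their values were seen: the Tek intron, because with the promoter it is the widest DHS of that gene, and the Flt1 introns, because they and the Tie1 promoter were the 4 regions open in HE and HP only.
Tek intron, chr4:94746358-94746557: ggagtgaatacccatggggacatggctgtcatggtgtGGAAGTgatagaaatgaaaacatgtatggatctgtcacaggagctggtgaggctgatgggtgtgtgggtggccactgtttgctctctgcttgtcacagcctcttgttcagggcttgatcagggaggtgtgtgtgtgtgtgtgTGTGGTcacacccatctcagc
Flt1 intron at 4.3 kb, chr5:147721635-147721834: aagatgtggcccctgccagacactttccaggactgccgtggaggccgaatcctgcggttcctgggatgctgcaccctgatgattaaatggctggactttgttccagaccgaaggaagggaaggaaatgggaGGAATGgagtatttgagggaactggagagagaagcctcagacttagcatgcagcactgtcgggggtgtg
Flt1 intron at 18.1 kb, chr5:147707785-147707984: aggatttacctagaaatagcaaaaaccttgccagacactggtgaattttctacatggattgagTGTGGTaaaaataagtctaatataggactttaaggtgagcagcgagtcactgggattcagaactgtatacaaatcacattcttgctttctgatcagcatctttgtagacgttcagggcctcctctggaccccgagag
Flt1 intron at 68.0 kb, chr5:147657960-147658159: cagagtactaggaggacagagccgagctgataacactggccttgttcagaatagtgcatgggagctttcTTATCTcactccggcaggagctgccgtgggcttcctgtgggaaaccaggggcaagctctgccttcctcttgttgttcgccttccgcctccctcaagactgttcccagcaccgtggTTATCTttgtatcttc

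The Tek intron carried an ETS match at bases 38 to 43 and a RUNX match at bases 180 to 185. The Flt1 introns each carried other letters: a TEAD match at 4.3 kb, a RUNX match at 18.1 kb and 2 GATA matches at 68.0 kb. TEAD matches were in 12.2% of the 200-base centers of all merged regions.

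Promoter DHSs of the 10 genes were most frequent in HE. A promoter DHS was listed for 3 of 10 genes in MES and 4 in HB, then for 9 in HE, 3 in HP and 4 in MAC. Of all protein-coding genes a promoter DHS was listed for 55.5% in MES and 57.1% in HB, then 59.9% in HE, 48.6% in HP and 48.7% in MAC. The vascular genes were thus below the share of all genes in MES, HB, HP and MAC, and above it in HE. Each list comes from a whole sorted population, so a DHS open in few cells and a DHS open weakly in all cells cannot be told apart. Because the lists differ in length and in the width of a DHS, the counts were repeated with the widest 17734 DHSs of each list, the length of the HP list. The counts were then 3, 4, 8, 3 and 2 genes in the order of the stages, against 52.6%, 52.5%, 51.7%, 48.6% and 38.7% of all genes. Without Tek, the gene of the sorting marker, 8 of the 9 remaining genes had a promoter DHS in HE.

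**Figure D1:**
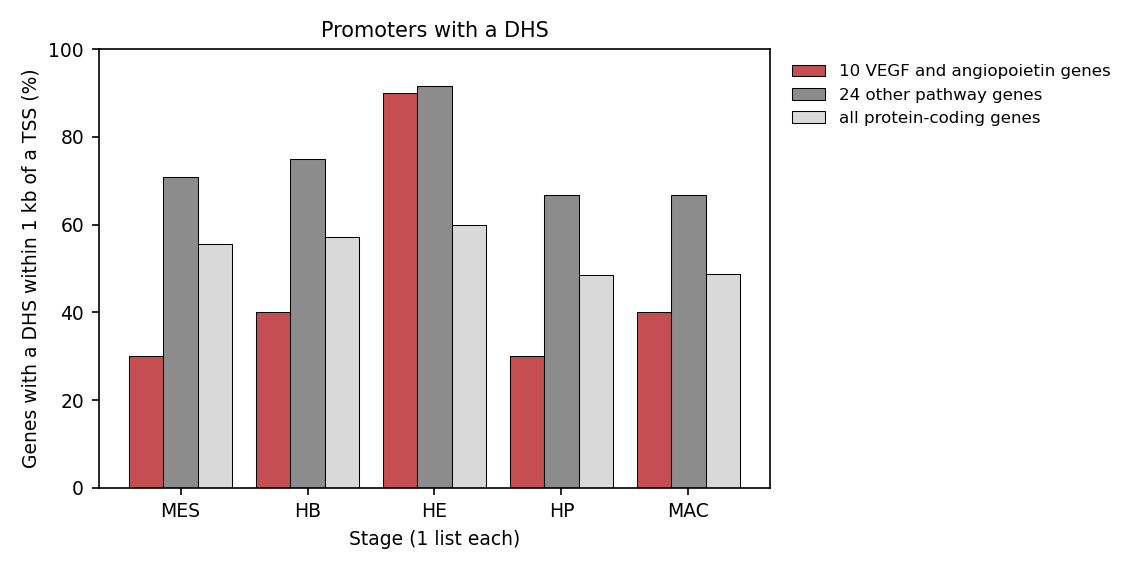
Percentage of genes with a DHS within 1 kb of a TSS in each stage, for the 10 VEGF and angiopoietin genes (red), the 24 other genes of the pathway list (dark grey) and all protein-coding genes (light grey), from 1 list per stage without error bars. The red bar stands below the light grey bar in every stage but HE, where 9 of 10 genes have a promoter DHS.

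The promoter patterns over the 5 stages differed among the genes. Tek and Angpt1 had a promoter DHS in HE only, the pattern of 659 protein-coding genes (3.03%). Tie1 had one in HE and HP (72 genes, 0.331%) and Flt4 in HE and MAC (162 genes, 0.744%). Flt1 had one in HB and HE (289 genes, 1.33%), Nrp2 in HB, HE and MAC (101 genes, 0.464%) and Vegfc in MES and HE (140 genes, 0.643%). Nrp1 and Vegfa had a promoter DHS in all 5 stages, the most frequent pattern of all genes (9155 genes, 42%). Angpt2 had none in any stage, the pattern of 7471 genes (34.3%). A promoter DHS in HE with none in MES or HB was seen for 4 of 10 genes (Flt4, Tek, Tie1 and Angpt1), against 4.53% of all genes. Of the 9 genes with a promoter DHS in HE, 3 (Tie1, Nrp1 and Vegfa) also had one in HP, against 79.9% of all genes with a promoter DHS in HE.

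When DHSs in and around the genes were counted too, HE again held the most. The 10 genes had 15 DHSs in MES and 24 in HB, then 46 in HE, 10 in HP and 34 in MAC, which is 0.0683%, 0.0971%, 0.138%, 0.0564% and 0.0908% of the respective list. The mean per gene was 1.5 in MES and 2.4 in HB, then 4.6 in HE, 1 in HP and 3.4 in MAC, against 1.03, 1.14, 1.48, 0.844 and 1.65 over all protein-coding genes. At least 1 DHS was listed at 7, 8, 10, 5 and 8 of the 10 genes, against 63.4%, 65%, 68.6%, 56.7% and 63.9% of all genes. HE held more DHSs than any other stage at 5 of 10 genes (Flt1, Flt4, Tek, Tie1 and Vegfa), against 11.7% of all genes. The median length of the 10 genes was 112 kb, against 17.2 kb for all protein-coding genes, and the rule takes up DHSs anywhere inside a gene. How the counts depend on gene length was not tested. HE DHSs were also the widest. The median width at the 10 genes was 500 bp in MES and 750 bp in HB, then 1200 bp in HE, and it was 700 bp in HP and 600 bp in MAC, against 800, 900, 1200, 900 and 600 bp over the whole lists.

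**Figure D2:**
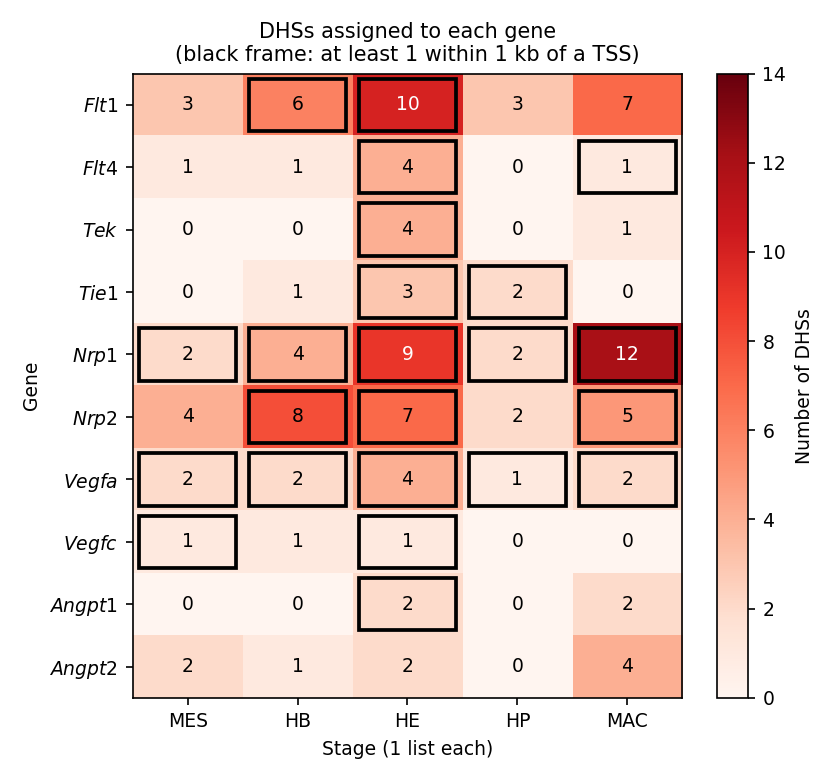
Number of DHSs assigned to each of the 10 genes (vertical axis) in each of the 5 stages (horizontal axis), 1 list per stage, with darker red for more DHSs and a black frame where at least 1 of them lay within 1 kb of a TSS. The HE column is framed for 9 of 10 genes, Nrp1 has 12 DHSs in MAC, and the HP column holds 10 DHSs in all.

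**Figure D3:**
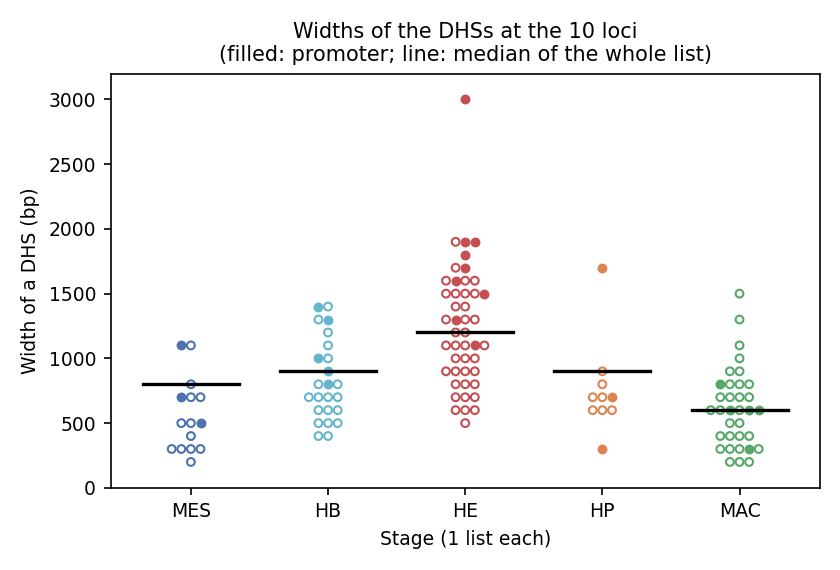
Width in bp of each DHS at the 10 genes by stage, 1 point per DHS, filled where it is a promoter DHS, with a black line at the median width of the whole list of that stage. HE points run from 500 to 3000 bp around a list median of 1200 bp, and MAC points from 200 to 1500 bp around 600 bp.

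To compare the same places across stages, each DHS was reduced to the 500 bp around its middle, and windows sharing at least 25% of their length with each other were joined. This gave 68846 regions, of which 62571 belonged to a protein-coding gene and 83 to the 10 genes. Of the 83 regions, 12 were at promoters and 71 were not, and 46 of the latter lay in introns, 19 upstream and 4 downstream of the gene and 2 in coding exons. Regions open in a single stage numbered 55 (66.3%, against 58.6% of the regions of any gene). The most frequent pattern was HE only, with 21 regions in 8 genes (25.3%, against 16.5% of the regions of any gene), followed by MAC only with 20 regions in 7 genes (24.1%, against 30.4%). Without Tek the order turned, with 17 regions open in HE only and 19 in MAC only. Regions open in all 5 stages numbered 3 (3.61%, against 14.4%): the Vegfa promoter, a Nrp1 intron and a place upstream of Nrp2. Of the 71 regions away from promoters, 2 were open in all 5 stages (2.82%), near the 3.04% of such regions of any gene. HB only was the pattern of 8 regions (9.64%, against 5.37%), HE with MAC of 7 (8.43%, against 3.43%), MES only of 6 (7.23%, against 3.99%), HE with HP of 4 (4.82%, against 2.09%) and HB with HE of 4 (4.82%, against 1.88%). HP only was the pattern of 0 regions, against 2.28% of the regions of any gene. Among the 71 regions away from promoters, MAC only came first with 19 (26.8%, against 38.9% of such regions of any gene) and 18 were open in HE only (25.4%, against 18.1%), while 27 were open in HE but not in MES or HB (38%, against 26.7%). Over all 83 regions this last count was 32 (38.6%, against 23.6%).

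**Figure D4:**
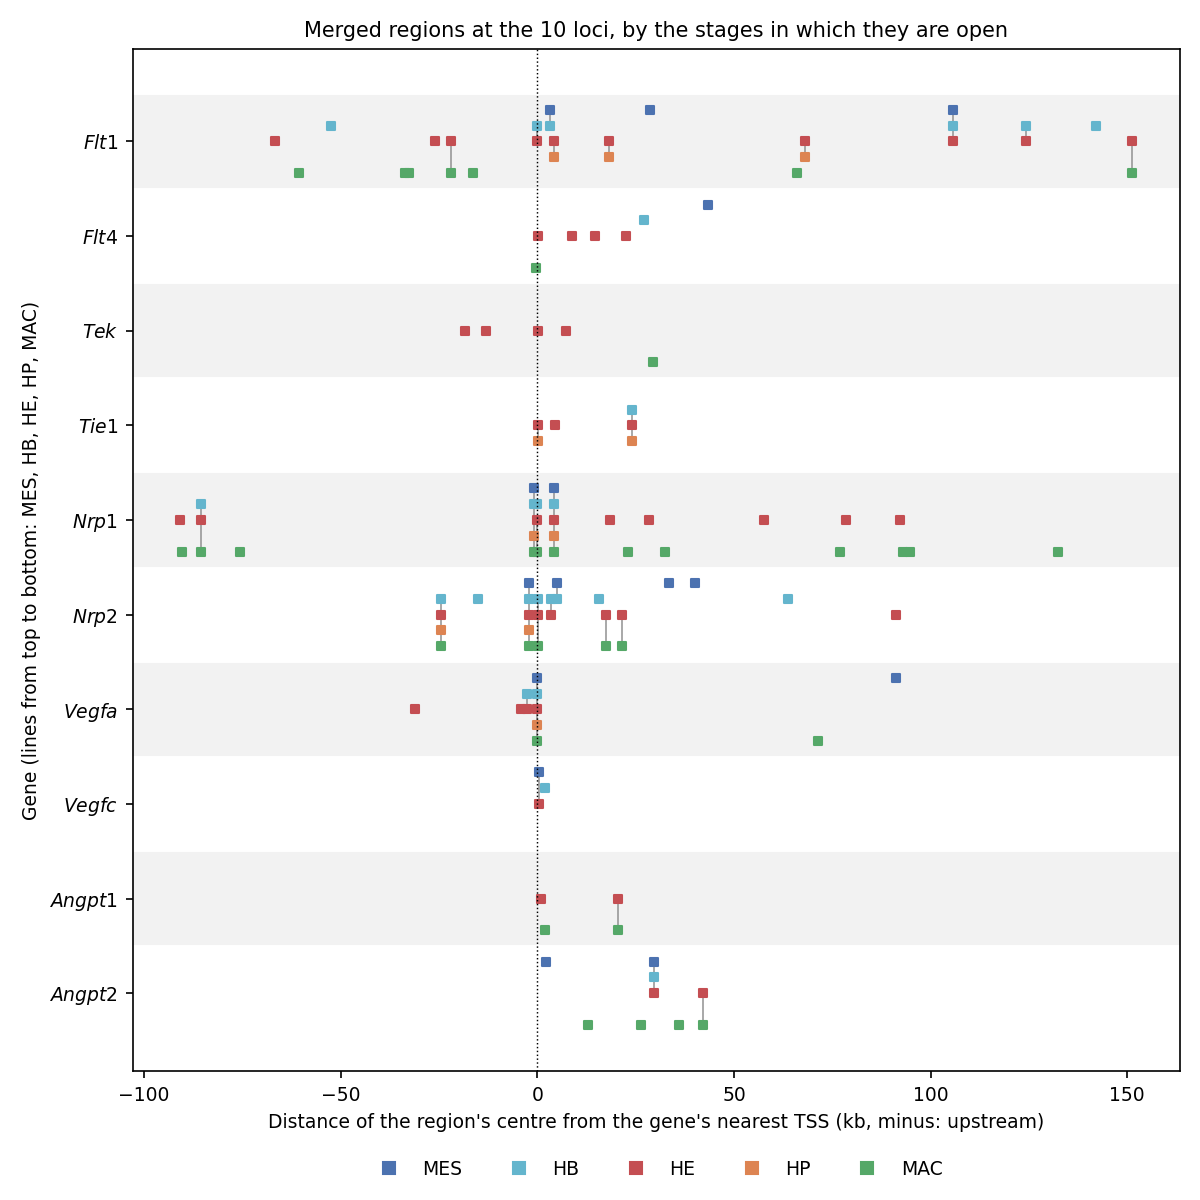
Each merged region of the 10 genes at the distance of its center from the nearest TSS of the gene in kb (minus is upstream, and Vegfa and Angpt1 have a second TSS inside the gene), with a colored square on the line of each stage in which it is open and a grey line joining the squares of 1 region. Squares standing alone are the 55 regions of a single stage, which include all regions of Tek.

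The smallest share of open regions was kept in the step from HE to HP. From MES to HB, 8 of 15 open regions of the 10 genes were still open (53.3%, against 82.4% for regions of any gene) and 16 opened. From HB to HE, 13 of 24 were kept (54.2%, against 65.4%). Over 3 of the other 11 regions (at 3.2 kb in Flt1 and at -1.0 and -0.1 kb in Nrp1) a deposited HE interval lay with its middle elsewhere, and with any such interval counted 16 of 24 were kept (66.7%, against 71%). From HE to HP, 9 of 46 were kept (19.6%, 95% Wilson interval 10.7 to 33.2, against 44.8%), or 10 of 46 with any deposited HP interval over a region (21.7%, against 46.5%), the added one being the Nrp1 promoter. None of the 83 regions opened in HP without a deposited HE interval over it. From HP to MAC, 5 of 10 were kept (50%, against 67.4%). Away from promoters, 7 of 37 regions were kept from HE to HP (18.9%, against 27.1% of such regions of any gene), a smaller gap than over all regions. In the other steps, the regions away from promoters kept 6 of 12 from MES to HB (50%, against 68.7%). They kept 10 of 19 from HB to HE, above the share of any gene (52.6%, against 45.9%). From HP to MAC they kept 3 of 7, near that share (42.9%, against 43.5%). The intervals cover counting error only, and neighboring regions of 1 gene are not independent. The HP list is the shortest: with the widest 17734 DHSs of each list, 6 of 24 regions of the 10 genes were kept from HE to HP (25%), against 66.1% for any gene. This pair covers promoter and other regions together. The gap away from promoters was not read with lists of equal length.

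**Figure D5:**
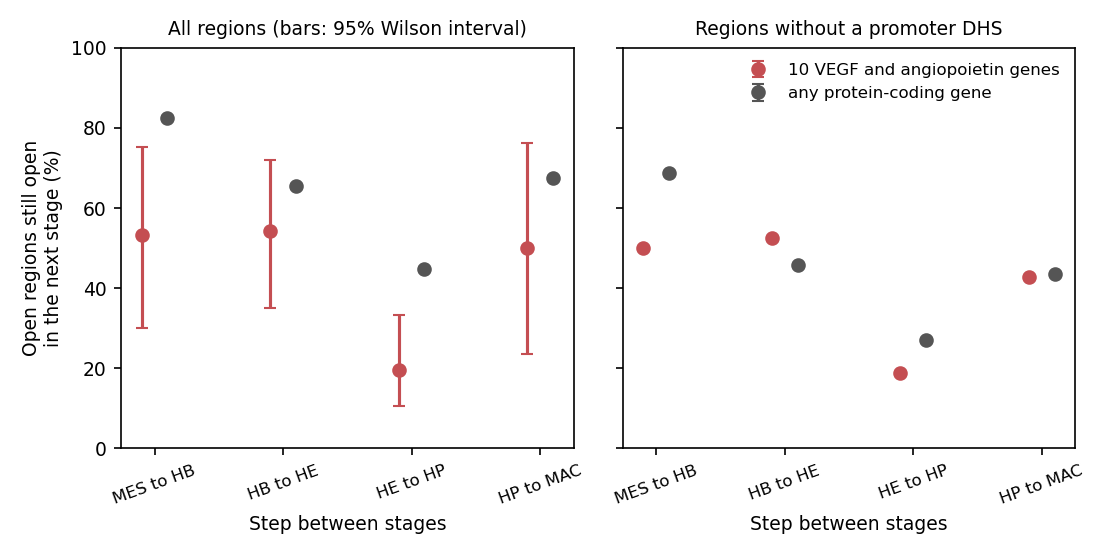
Percentage of regions open in a stage that were also open in the next, for the 10 VEGF and angiopoietin genes (red) and for any protein-coding gene (grey), over all regions with 95% Wilson intervals (left) and over regions without a promoter DHS (right). In the step from HE to HP the red point lies at 19.6% on the left and 18.9% on the right, against 44.8% and 27.1% in grey.

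Tek encodes TIE2, the receptor of the angiopoietins, and it lies on chromosome 4 (94739086 to 94874976, plus strand). No DHS was listed at Tek in MES, HB or HP, 4 were listed in HE and 1 in MAC. The HE DHSs were a promoter DHS of 1700 bp (chr4:94738708-94740407), a DHS of 1700 bp in an intron at 7.2 kb, and DHSs of 1000 bp at -13.1 kb and 600 bp at -18.5 kb upstream. All 4 regions were open in HE only. The MAC DHS of 600 bp lay in an intron at 29.5 kb, where no other stage had a site, so HE and MAC shared no region at this gene.

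Tie1 encodes a related receptor with no well established ligand of its own that pairs with TIE2. It had 0 DHSs in MES and 1 in HB, then 3 in HE, 2 in HP and 0 in MAC. Its promoter DHS was 1600 bp wide in HE (chr4:118489008-118490607) and 300 bp wide in HP, where 99.6% of the list was at least as wide. An intronic DHS of 1500 bp at 4.4 kb was open in HE only. A region at 24.1 kb, downstream of the gene, was open in HB, HE and HP, with DHSs of 600, 1300 and 600 bp. Its assignment to Tie1 rests on distance alone, and with the nearest gene taken by TSS it did not belong to Tie1. Tie1 and Tek were thus both open at the promoter in HE, and only Tie1 kept a listed promoter DHS in HP.

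Flt1 is one of the genes with most DHSs, on chromosome 5 (147561604 to 147726438, minus strand). It had 3 DHSs in MES and 6 in HB, then 10 in HE, 3 in HP and 7 in MAC. At least 10 DHSs in HE were listed at 0.969% of all protein-coding genes, and 5.8% of genes were at least as long as Flt1. The promoter DHS appeared in HB with 1000 bp and was wider in HE with 1900 bp (chr5:147725026-147726925), a width reached by 6.55% of the HE list. It was not listed in MES, HP or MAC.

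The 19 merged regions at Flt1 changed their stages along the gene. The introns at 4.3, 18.1 and 68.0 kb were open in HE and HP, with HE DHSs of 1600, 1100 and 1500 bp and HP DHSs of 700, 600 and 900 bp, and they were all the Flt1 regions that HP had. An intron at 3.2 kb, next to the first of these, was open in MES and HB, and its deposited HE interval reached over from 4.3 kb. Further into the gene, the intron at 105.7 kb was open in MES, HB and HE and the one at 124.1 kb in HB and HE. The MAC regions lay mostly upstream: those at -60.6, -33.6, -32.8 and -16.3 kb and an intron at 66.0 kb were open in MAC only, and those at -21.9 kb and 151.2 kb in HE and MAC. HE alone was open at -66.8 and -26.0 kb, MES alone at 28.7 kb, and HB alone at -52.4 and 142.1 kb. No Flt1 region was open in both HP and MAC, but HP had only 3 regions here, all in introns. Of the HP regions of any gene away from promoters, 43.5% were open in MAC.

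Flt4 encodes the receptor of VEGF-C and lies on chromosome 11 (49609679 to 49652739, plus strand). It had 1 DHS in MES and 1 in HB, then 4 in HE, 0 in HP and 1 in MAC. The HE DHSs were the promoter DHS of 1300 bp (chr11:49609311-49610610) and intronic DHSs of 700, 1000 and 1300 bp at 8.8, 14.5 and 22.6 kb, and each of these regions was open in HE only. The MAC DHS was only 300 bp wide and centered at -0.5 kb, and its deposited interval partly overlapped that of the HE promoter DHS, although their middles fell into separate regions. With the widest 17734 DHSs of each list the Flt4 promoter was open in HE only. The MES DHS of 500 bp lay just downstream of the gene at 43.3 kb, and the HB DHS of 700 bp at a coding exon at 27.1 kb. With the nearest gene taken by TSS, neither belonged to Flt4. As at Tek, 4 regions were open in HE and none of them in MES, HB, HP or MAC.

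The neuropilin genes had DHSs in every stage. Nrp1, on chromosome 8 (128358591 to 128505476, plus strand), had 2 DHSs in MES and 4 in HB, then 9 in HE, 2 in HP and 12 in MAC, and at least 12 in MAC were listed at 0.863% of all genes. Its promoter was covered by a single DHS of 3000 bp in HE (chr8:128357024-128360023), and only 0.0751% of the HE list was at least as wide. In HP a DHS of 1700 bp covered it, in HB DHSs of 1300 and 800 bp, in MAC a pair of 600 bp each, and in MES 1 of 700 bp that lay upstream at -1.2 kb. With TSS of curated mRNAs only, or with a promoter reach of 100 bp, the MES DHS no longer counted as a promoter DHS. An intron at 4.1 kb was open in all 5 stages, with widths of 700, 1400, 1100, 700 and 700 bp.

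Away from the promoter, HE and MAC shared the Nrp1 regions at -85.5 and 4.1 kb and differed at the others. HE alone was open at 6 regions, at -90.8, 18.5, 28.4, 57.6, 78.5 and 92.2 kb. MAC alone was open at 8 regions, at -90.4, -75.7, 23.0, 32.4, 77.0, 93.0, 94.7 and 132.4 kb. The region at -85.5 kb was open in HB, HE and MAC. Some of these HE and MAC regions were close neighbors, and at -90.4 and 93.0 kb the deposited HE interval also reached over the MAC region, so the separation at these places depends on reducing each DHS to its middle. HP had only the promoter and the intron at 4.1 kb. The MAC DHS at 132.4 kb was 1300 bp wide, against a list median of 600 bp.

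Nrp2, on chromosome 1 (62703317 to 62818692, plus strand), had 4 DHSs in MES and 8 in HB, then 7 in HE, 2 in HP and 5 in MAC, and was the only one of the 10 genes with most DHSs in HB alone. At least 8 DHSs in HB were listed at 0.611% of all genes. With DHSs at or above the median width of their list, HB no longer came first: Nrp2 had 3 in HB, 3 in HE and 4 in MAC. Its promoter DHS was 900 bp wide in HB, 1100 bp in HE and 600 bp in MAC, and none was listed in MES or HP. The HE DHS was narrower than the HE list median of 1200 bp, and it was no longer in the list when the widest 17734 DHSs of each stage were taken, which left HB and MAC. A region at -2.1 kb was open in all 5 stages, and with a promoter reach of 2 kb it added HP to the promoter pattern. A region at -24.5 kb was open in all stages but MES, with DHSs of 1200, 1600, 800 and 800 bp. Introns at 17.4 and 21.5 kb were open in HE and MAC and skipped HP, with DHSs of 1100 and 1400 bp in HE and 1500 and 1100 bp in MAC. The introns at 3.5 and 4.9 kb were open in HB and HE and in MES and HB, respectively. Single-stage regions were at -15.2, 15.7 and 63.6 kb in HB, at 33.5 and 40.0 kb in MES and at 91.3 kb in HE, where the DHS was 500 bp wide. Nrp2 had 0 regions open in MAC only, whereas Nrp1 had 8.

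The VEGF ligand genes differed from each other. Vegfa, on chromosome 17 (46016993 to 46032377, minus strand), encodes the main angiogenic VEGF and had 2 DHSs in MES and 2 in HB, then 4 in HE, 1 in HP and 2 in MAC. Its promoter DHS was listed in all 5 stages, with widths of 1100, 1400, 1500, 700 and 800 bp, and in HP it was the only DHS of the gene. An intron at -2.6 kb from the inner TSS was open in HB and HE, and regions at -4.1 and -31.2 kb in HE only. The remaining DHSs, of 500 bp in MAC at 71.4 kb and 400 bp in MES at 91.1 kb, lay far downstream. Vegfc, on chromosome 8 (54077532 to 54186454, plus strand), encodes the lymphatic growth factor and had 1 DHS in each of MES, HB and HE and none in HP or MAC. Its promoter DHS was 500 bp wide in MES and 1800 bp in HE, and the HB DHS of 500 bp lay at 1.8 kb in an intron, so that with a promoter reach of 2 kb HB joined the pattern. Vegfc shares this interval with the annotated gene model Gm33153, and its 2 regions lie inside both.

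The angiopoietin genes had no DHS in HP. Angpt1, on chromosome 15 (42424667 to 42676977, minus strand), encodes the ligand that activates TIE2, and it had no DHS in MES, HB or HP and 2 each in HE and MAC. It is the longest of the 10 genes, and only 3.28% of genes were at least as long. The HE DHS of 1900 bp (chr15:42674992-42676891) was centered at 1.0 kb in the first part of the gene and counted as a promoter DHS because its edge came near the TSS. A MAC DHS of 300 bp lay beside it at 1.9 kb and partly overlapped the deposited HE interval. A region at 20.6 kb from an inner predicted TSS was open in HE and MAC, with DHSs of 800 and 600 bp. Angpt2, on chromosome 8 (18690263 to 18741562, minus strand), encodes a ligand that can oppose Angpt1 at TIE2 and is known as a product of activated endothelial cells. It had 2 DHSs in MES and 1 in HB, then 2 in HE, 0 in HP and 4 in MAC, and no promoter DHS in any stage. An intron at 29.7 kb was open in MES, HB and HE, with widths that were 300, 800 and 1200 bp, and an intron at 42.2 kb in HE and MAC with 1100 and 1000 bp. MAC alone was open at 12.9, 26.2 and 36.0 kb, and MES alone at 2.3 kb. Angpt2 lies inside Mcph1, so that its DHSs lie in both genes and were given to the gene with the nearer TSS.

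Taking receptors and ligands apart, the receptor genes Tek, Tie1, Flt1 and Flt4 shared the HE promoter DHS, and none of them had a promoter DHS in MES. Neither trait was theirs alone. An HE promoter DHS was also listed for Nrp1, Nrp2, Vegfa, Vegfc and Angpt1, and none in MES for Nrp2, Angpt1 and Angpt2. Of all genes, 59.9% had a promoter DHS in HE and 55.5% in MES. Of their 34 regions, 21 were open in HE (61.8%) and 9 in MAC (26.5%), against 49.2% and 55.2% of the regions of any gene. The co-receptors held 32 regions, of which 16 were open in HE (50%) and 17 in MAC (53.1%), both near the share of any gene. The ligands held 17 regions, of which 9 were open in HE (52.9%) and 8 in MAC (47.1%).

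Other genes of the pathway were read from a list of 24 genes, all of which were matched. A promoter DHS was listed for 17 of 24 in MES and 18 in HB, then 22 in HE, 16 in HP and 16 in MAC, and 15 had one in all 5 stages. In the last group, with the pattern of Nrp1 and Vegfa, were the VEGF receptor gene Kdr, the ligand gene Pgf, the oxygen sensing genes Hif1a, Epas1, Arnt, Vhl and Egln3, the signaling genes Plcg1, Shb, Nck1, Dok2, Pik3r1 and Ptk2, and the plexin and semaphorin genes Plxnd1 and Sema3f. The HE-only pattern of Tek and Angpt1 was also that of Ptprb, a phosphatase that acts on TIE2, Nos3, the endothelial nitric oxide synthase, the plexin gene Plxna1 and the semaphorin gene Sema3a. Vegfd had no promoter DHS, like Angpt2. Kdr had 1 DHS in MES and 5 in HB, then 17 in HE, 2 in HP and 9 in MAC, the same order of stages in HE, MAC and HB as at Flt1, but with its promoter listed throughout. The bars for this list and for the 10 genes are close in HE and apart in the other stages.

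The stage labels were set against marker genes. Promoter DHSs of the 4 mesoderm markers (T, Mixl1, Mesp1 and Eomes) were listed for 4 genes in MES and 4 in HB, then for 3 in HE, 0 in HP and 0 in MAC. Of the 5 macrophage markers (Itgam, Csf1r, Adgre1, Cd68 and Mrc1), 5 had one in MAC, and 1, Cd68, in each of the other stages. Of the 5 endothelial markers, 1, 1, 3, 1 and 0 had one in the order of the stages. The endothelial cadherin gene Cdh5 had one in HE only, as Tek and Angpt1 did, and Pecam1 in HE and HP, as Tie1 did, while Cldn5, a tight junction gene, had one in MES, HB and HE, and Emcn and Esam had none in any stage. Of the 5 blood progenitor markers, 0, 0, 2, 2 and 3 had one. Itga2b, which encodes the HP sorting marker CD41, had a promoter DHS in HE and HP although HE cells were sorted as CD41-. Gata1 had no DHS in any stage, and Ptprc, a pan-leukocyte gene, had a promoter DHS in MAC only. The part of cells of a neighboring stage in any of these lists was not tested.

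To describe what the regions share in sequence, exact matches of the same 10 motifs were counted in the central 500 bp. Of the 72 regions more than 1 kb from a TSS, 56.9% held ETS (95% Wilson interval 45.4 to 67.7), against 44.3% of all 52790 such regions. Among those open in HE, 24 of 38 held ETS (63.2%, interval 47.3 to 76.6, against 42.8% of all regions open in HE), and among those not open in HE, 17 of 34 (50%, against 45.2%). GATA was found in 18.1% of the 72 regions (interval 10.9 to 28.5), against 27.3%, and in 8 of the 38 open in HE (21.1%, interval 11.1 to 36.3), against 31.5%. RUNX stood at 41.7% against 37.2%, TEAD at 25% against 29.2%, SOX at 25% against 21.3%, AP-1 at 25% against 27.2%, E-box at 30.6% against 32.2%, HIF at 22.2% against 24.9%, FOX at 5.56% against 7.46%, and the FOX element joined to ETS at 13.9% against 9.33%. In the central 200 bp of all 83 regions the shares of ETS, RUNX and SOX stayed above those of all regions, whereas GATA (13.3%, against 10.5%), FOX and AP-1 lay above instead of below and the FOX element joined to ETS below instead of above (3.61%, against 4.09%). The intervals cover counting error only. Of the 11 regions within 1 kb of a TSS, 7 held ETS (63.6%, interval 35.4 to 84.8, against 34.4% of 16052 regions).

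The number of ETS matches differed between regions, and the number per region was not counted over all merged regions. The Flt4 intron at 22.6 kb, open in HE only, held 4 ETS matches and 2 matches of the FOX element joined to ETS, the most of any region here. The Nrp1 intron at 28.4 kb, also open in HE only, held 2 of each. At Tek, the promoter region held 2 ETS matches, 1 GATA, 1 RUNX, 1 FOX and 1 FOX element joined to ETS, and the region at -18.5 kb held 2 ETS and 2 TEAD matches. The Flt1 intron at 105.7 kb, open in MES, HB and HE, and those at 124.1 and 151.2 kb held 2 TEAD matches each. The Vegfc and Nrp2 promoter regions held no match of any of the 10 motifs. A match describes the letters and is not evidence that a factor is bound.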

How the data were processed

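DNaseI-seq was carried out on sorted MES, HB, HE, HP and MAC cells, with 1 list of DHSs analysed per stage; the label of MAC names replicates 1 and 2 together for its list. According to the study's methods and the processing notes in the labels, the authors used CutAdapt for trimming, Bowtie for alignment to mm10 (GRCm38), Picard to remove duplicates among reads with a unique place, and DFilter to call DHSs in bins of 100 bp; versions are not given in the sources used here. The deposited values are interval starts and ends in bp, with no score or read count, so depth is unknown, widths are multiples of 100 bp, and a place without a listed DHS is not shown to be closed. A wider or longer list can come from depth or calling as well as from chromatin.

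TSS and gene bodies came from RefSeq (GRCm38.p6), for all annotated transcripts of 21774 protein-coding genes. A DHS other than a promoter DHS went to the nearest gene body (ties to the nearest TSS). The middle of each interval stood for its summit in the 500 bp windows, which were joined where they shared 25% of their length, after the rule of the study. Motifs were exact matches on both strands. All 10 genes are described, and from the pathway list those whose promoter pattern is that of one of them are named. The genes, lists and alternatives were chosen with earlier results of these data known. With 1 list per stage no test was run and counts stand beside those over all genes or regions; Wilson intervals (95%) cover counting error only. Alternatives changed the lists, TSS, reach, nearest gene and merging. Assignment and merging were tested on simulated data. Python 3.11.15, pysam 0.24.0 and scipy 1.17.1 were used.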

Additional observations from a re-analysis of the deposited data

How the results depend on the processing

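With 1 list per stage no replicate could be left out. No paired analysis was possible because each stage has a single list and no test was run. The counts depended mainly on how the lists were trimmed. With DHSs at or above the median width of their list, promoter DHSs were at 1, 4, 8, 1 and 3 genes from MES to MAC, against 42.9%, 48.1%, 51.9%, 37.7% and 40.1% of all genes, and DHSs at the 10 genes numbered 3 in MES and 9 in HB, then 24 in HE, 2 in HP and 20 in MAC. Regions then numbered 44, of which 13 were open in MAC only (29.5%, against 28.6% of the regions of any gene) and 0 in all 5 stages (against 19.3%), and 1 of the 24 open in HE was also open in HP (4.17%, against 46.4%). With the widest 17734 DHSs of each list, 2 genes had a promoter DHS in MAC, and DHSs numbered 9 in MES, 15 in HB, 24 in HE and 17 in MAC. Regions then numbered 52, of which 13 were open in HE only (25%, against 10.3%), 11 in MAC only (21.2%, against 19.8%) and 1 in all 5 stages (1.92%, against 18.3%). MAC only was thus near the share of any gene with either trimming, and below it with the lists as deposited. HE had the most genes with a promoter DHS and the most DHSs in both cases. The regions of the trimmed lists were not split into promoter and other regions, so their shares mix both kinds. In the central 200 bp in place of 500, fewer of the 83 regions held a match, since a shorter window holds fewer letters: ETS 36.1% (24% of all regions), RUNX 22.9% (16.1%), TEAD 9.64% (12.2%), SOX 10.8% (7.27%), E-box 10.8% (15.2%), HIF 7.23% (12.8%) and the FOX element joined to ETS 3.61% (4.09%). The joined element turned from above to below the share of all regions (13.3% against 7.92% in 500 bp), and GATA (13.3% against 10.5%), FOX (4.82% against 2.64%) and AP-1 (14.5% against 13%) from below to above. Other TSS, reaches, gene assignment and merging kept every count summed over the 10 genes within 1.5 times its value. The alternatives chosen after seeing the data (DHSs set to 500 bp around their middle for promoter calls, stages read from any deposited interval over a region, and leaving out Tek) did so too. For single genes, 12 of 190 values moved further under these settings, all of them small counts at Flt4, Tie1, Vegfa, Vegfc or Angpt1. With the trimmed lists, 58 of 120 values of single genes moved further. Over the 10 genes together, 92 of 119 recomputed counts and shares stayed within 1.5 times or, for motifs, within the Wilson interval. The promoter pattern changed for 6 genes with DHSs at or above the median width (Flt4, Tie1, Nrp1, Nrp2, Vegfa and Vegfc) and for 3 with the widest DHSs (Flt4, Nrp1 and Nrp2), and for 1 to 3 with other TSS or reaches.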
